A study of Mus musculus with 12 samples.

Results

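The Toll-like receptors of mouse bone marrow derived macrophages were followed as 10 genes (Tlr1, Tlr2, Tlr3, Tlr4, Tlr5, Tlr6, Tlr7, Tlr8, Tlr9 and Tlr13) of the 55401 gene IDs in a table of read counts, chosen by symbol. All 10 were found, and all 10 passed the filter on low counts. The macrophages were grown from bone marrow of C57BL6 background mice with macrophage colony-stimulating factor (M-CSF), a growth factor that drives marrow progenitors to become macrophages. The old group held 6 libraries from mice aged 12 months, and the young group held 6 libraries from mice aged 8 weeks. No allele, stimulus or treatment other than M-CSF is given for either group. Libraries are biological replicates per the labels, but none is tied to an animal of its own, and a p-value here reflects only how these 12 libraries scatter.

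Toll-like receptors are membrane proteins of innate immune cells that bind molecules of microbes and activate NF-kB and interferon regulatory factors through the adaptors MyD88 and TRIF. Some sit on the cell surface, where they meet lipids and proteins of bacteria, and others sit in endosomes, where they meet nucleic acids. The surface group was taken as Tlr1, Tlr2, Tlr4, Tlr5 and Tlr6. TLR2 pairs with TLR1 or TLR6 to bind lipopeptides, TLR4 binds lipopolysaccharide, and TLR5 binds flagellin. The endosomal group was taken as Tlr3, which binds double-stranded RNA, Tlr7 and Tlr8, relatives that bind single-stranded RNA, Tlr9, which binds DNA with unmethylated CpG, and Tlr13, which binds bacterial ribosomal RNA. Mouse TLR8 is known to respond weakly to ligands of the human protein.

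Assigned counts per library were 19.3 to 22.4 M (1 M is 1000000 counts) in old and 22.2 to 25.2 M in young libraries, and receptors other than Tlr5 drew at least 167 counts in each. The macrophage genes Lyz2, Csf1r, Adgre1 (F4/80) and Cd68 were abundant in both groups, with Adgre1 at 923 to 1398 CPM (counts per 1000000 counts, scaled by TMM) in old and 745 to 1371 CPM in young libraries. Old replicates 2 and 3 and, farthest, young replicate 6 stood apart. Their cell cycle level, the mean log2 CPM of 30 genes of dividing cells such as Mki67, was 6.20, 5.62 and 6.77, against 3.80 to 5.26 in the other 9 libraries. Their interferon-stimulated level, the mean log2 CPM of 40 genes such as Ifit1, was 5.13, 5.33 and 4.79, against 5.75 to 7.16 in the others. Transcripts of the Y chromosome genes Ddx3y, Eif2s3y, Uty and Kdm5d were at 0 in all 12 libraries and Xist was at 331 to 501 CPM in old and 327 to 377 CPM in young libraries, and 3 of the 10 receptors are X-linked.

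In GRCm38 the genes lie on 7 chromosomes, and 2 pairs are close neighbours. Tlr1 (ENSMUSG00000044827, chr5:64924679-64933563) and Tlr6 (ENSMUSG00000051498, chr5:64952031-64960097) lie 18467 bases apart on the minus strand. Tlr8 (ENSMUSG00000040522, chrX:167242696-167264329) and Tlr7 (ENSMUSG00000044583, chrX:167304929-167330558) lie 40599 bases apart, also on the minus strand. Tlr13 (ENSMUSG00000033777, chrX:106143204-106160493) is on the plus strand of the X chromosome. The others are Tlr2 (ENSMUSG00000027995, chr3:83836272-83841767, minus), Tlr3 (ENSMUSG00000031639, chr8:45395665-45411080, minus), Tlr4 (ENSMUSG00000039005, chr4:66827584-66930284, plus), Tlr5 (ENSMUSG00000079164, chr1:182954788-182976044, plus) and Tlr9 (ENSMUSG00000045322, chr9:106222598-106226883, plus). Exons of a gene were counted together. Of all stretches of 50 bases in Tlr1 transcripts 13.6% also occur in Tlr6, and 12.3% of those of Tlr6 occur in Tlr1, so their levels are uncertain where reads fell there. Tlr3 shares 7.32% of its exonic bases with the annotated gene Gm45542, and counts made without strand cannot tell that overlap apart.

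The 250 bases upstream of a start were read for 8 receptors from RefSeq windows (GRCm38.p6), with 10 windows in all. Those that overlap no annotated exon of the gene are shown, since they belong to the pair with the widest spread among the abundant receptors (Tlr8 and Tlr9), to the receptor with the lowest level (Tlr5) and to the one window with a full interferon regulatory factor (IRF) motif (Tlr6). Each is printed 5′ to 3′ on the gene's strand, and capitals mark matches to the motifs searched.
Tlr9, chr9:106222348-106222597, plus strand: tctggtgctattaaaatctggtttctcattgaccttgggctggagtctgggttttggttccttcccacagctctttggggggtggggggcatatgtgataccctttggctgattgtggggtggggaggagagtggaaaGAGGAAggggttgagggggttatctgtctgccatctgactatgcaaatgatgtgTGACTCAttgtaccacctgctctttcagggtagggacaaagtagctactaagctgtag
Tlr8, chrX:167264330-167264579, minus strand: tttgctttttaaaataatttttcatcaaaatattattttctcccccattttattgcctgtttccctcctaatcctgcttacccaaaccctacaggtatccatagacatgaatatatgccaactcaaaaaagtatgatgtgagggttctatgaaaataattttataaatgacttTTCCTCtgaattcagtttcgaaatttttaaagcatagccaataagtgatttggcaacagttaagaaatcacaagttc
Tlr6, chr5:64959167-64959416, minus strand: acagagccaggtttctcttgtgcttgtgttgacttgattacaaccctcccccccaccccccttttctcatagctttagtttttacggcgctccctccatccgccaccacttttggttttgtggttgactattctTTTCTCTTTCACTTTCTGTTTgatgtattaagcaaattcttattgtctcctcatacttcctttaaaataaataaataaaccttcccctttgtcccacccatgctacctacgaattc
Tlr5, chr1:182954538-182954787, plus strand: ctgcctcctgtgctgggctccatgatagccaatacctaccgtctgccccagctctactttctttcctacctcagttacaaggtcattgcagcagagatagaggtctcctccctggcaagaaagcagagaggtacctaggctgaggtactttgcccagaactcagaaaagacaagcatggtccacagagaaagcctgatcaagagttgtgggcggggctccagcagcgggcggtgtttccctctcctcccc
The Tlr6 window lies inside the annotated span of the gene, upstream of a RefSeq start within it, and the other 3 lie before the annotated gene.

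A total of 5 motifs were searched on both strands. The Tlr9 window holds GAGGAA, a core bound by the macrophage factor PU.1, 112 to 107 bases before the start, and TGANTCA, the AP-1 motif, 58 to 52 bases before it. The Tlr8 window holds GAGGAA on the other strand, 77 to 72 bases before the start. GAGGAA is also written in a Tlr1 window (23 to 18 bases before) and the Tlr13 window (83 to 78), which are not shown. In the Tlr6 window 2 overlapping matches to the IRF motif, written as 2 copies of GAAA set 2 bases apart, lie on the other strand between 116 and 101 bases before the start, and 3 matches to its shorter form AAANNGAAA overlap them. The shorter form is also written in the Tlr2 and Tlr3 windows, which are not shown. None of the 5 motifs is written in the Tlr5 window. Among 32851 windows of that length over all genes, 23.3% hold GAGGAA, 6.75% TGANTCA, 2.98% the IRF motif and 9.37% its shorter form. The NF-kB motif, GGGA and TTTCC with any base between them, held by 0.356% of windows, was met in the Tlr3 window and in no other receptor's. These matches describe the letters of the windows, and binding was not measured.

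Levels were compared between receptors in TPM (transcripts per 1000000), which divides counts by exonic length. The RNA-sensing Tlr7 stood highest with 224 ± 42.6 TPM (SD over 12 libraries), above 95.2% of tested genes, and Tlr13 followed with 147 ± 25.4 TPM. Tlr2, the common partner of the lipopeptide receptors, had 128 ± 22.3 TPM, and Tlr1 had 73.2 ± 16.7 TPM. A middle group followed, with Tlr8 at 48.6 ± 28.9 TPM, Tlr9 at 44.6 ± 15.8 TPM and the lipopolysaccharide receptor Tlr4 at 36.1 ± 5.64 TPM. Tlr6, the other partner of Tlr2, had 21.1 ± 3.90 TPM and Tlr3 had 6.91 ± 1.53 TPM. The flagellin receptor Tlr5 was nearly silent at 0.932 ± 0.405 TPM.

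The order of neighbours was firm at its lower end. The ranges of Tlr4 and Tlr6, of Tlr6 and Tlr3, and of Tlr3 and Tlr5 did not overlap over the 12 libraries. Tlr2 lay above Tlr1 in 12 of 12 libraries, while Tlr7 lay above Tlr13, and Tlr1 above Tlr8, in 11 of 12. Tlr13 lay above Tlr2 in 8 of 12 and Tlr9 above Tlr4 in 9 of 12, so these neighbours did not differ beyond their spread. Tlr8 lay above Tlr9 in 6 of 6 old and 2 of 6 young libraries.

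**Figure D1:**
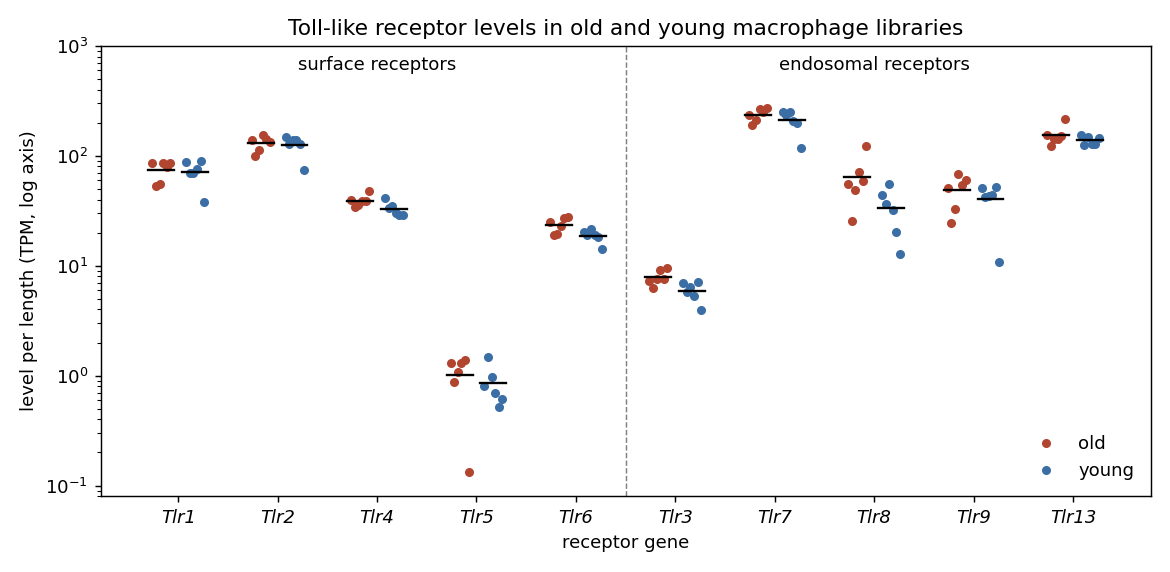
Level per length of each receptor in TPM (log axis), old libraries left and young libraries right of each name, 1 point per library and a bar at the group mean. Tlr7 and Tlr13 stood highest and Tlr5 lowest, and the old and young points overlapped for every receptor.

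The other mouse receptors, Tlr11 and Tlr12, were near silence and were not among the 10. Tlr11, which binds profilin of parasites in mice, had 0.890 ± 0.571 CPM in old and 0.753 ± 0.414 CPM in young libraries (SD, n = 6 each). Tlr12, which shares that ligand, had 0.389 ± 0.319 CPM in old and 0.311 ± 0.282 CPM in young libraries and did not pass the low-count filter. It was at 0 in old replicate 2 and young replicate 6, where 3 counts would be 0.145 and 0.127 CPM.

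The endosomal receptors supplied most of the summed receptor level. Surface receptors summed to 269 ± 41.4 TPM in old and 251 ± 48.6 TPM in young libraries (SD, n = 6 each). Endosomal receptors summed to 513 ± 106 TPM in old and 428 ± 79.8 TPM in young libraries. The surface share of the sum was 30.1, 35.4 and 37.0% (lowest, median, highest) in old libraries and 34.7, 36.5 and 39.6% in young libraries. The groups overlapped, and the lowest share was in old replicate 6, which had the highest endosomal sum of 682 TPM. On average the share was 34.6 ± 2.42% in old and 36.9 ± 1.97% in young libraries, and no test was made of this difference. Tlr2 and Tlr1 carried most of the surface sum, and Tlr7 and Tlr13 most of the endosomal sum. Tlr7 alone made up 30.6% of the 12-library total and Tlr5 made up 0.128%.

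**Figure D2:**
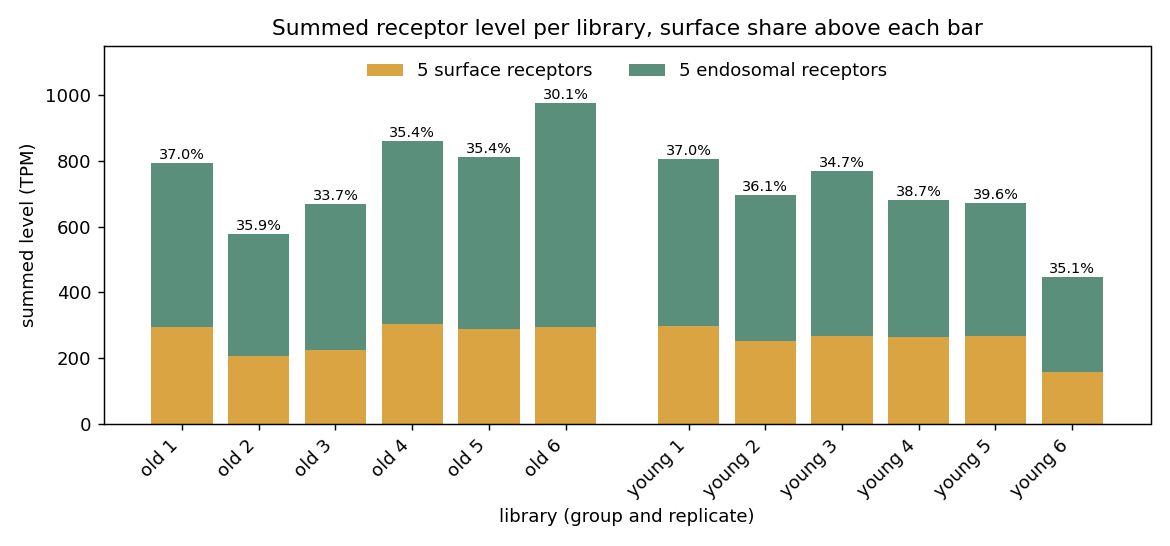
Summed TPM of the 5 surface and 5 endosomal receptors in each library, old libraries left, with the surface share printed above the bar. The endosomal part exceeded the surface part in each library, and young replicate 6 had the lowest total (447 TPM).

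The receptors differed widely in their spread between libraries of one group. As a biological coefficient of variation (BCV, the spread beyond counting error within groups), Tlr8 had 45.6%, Tlr5 45.1% and Tlr9 43.1%, against a median of 16.9% over all tested genes. Tlr1 had 26.8%, while Tlr3, Tlr7 and Tlr2 had 21.1%, 20.9% and 20.6%. Tlr6 lay near the median of all genes, and the steadiest were Tlr13 with 15.1% and Tlr4 with 13.6%. By BCV alone, both the surface and the endosomal group thus held steady and widely spread members. Of the tested genes 98.6% had a lower BCV relative to the trend at their abundance than Tlr8, and 98.1% a lower one than Tlr9. For Tlr4 and Tlr13 this share was 61.3% and 71.6%. For Tlr5, where the trend itself was 33.2%, it was 90.2%.

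Much of that spread lay in a few libraries. Old replicate 2 was the lowest old library for 9 of 10 receptors, all but Tlr5, and young replicate 6 was the lowest young library for 8 of 10, all but Tlr5 and Tlr13. Old replicate 4 was the highest old library for Tlr1, Tlr2, Tlr3, Tlr7 and Tlr9, while old replicate 6 was the highest for Tlr4, Tlr8 and Tlr13. Tlr9 had 60.7, 27.9, 37.5, 82.1, 64.3 and 68.7 CPM in old replicates 1 to 6, against 60.8, 49.3, 50.2, 54.4, 70.2 and 12.4 CPM in young replicates 1 to 6. Its low values were those of old replicates 2 and 3 and of young replicate 6. With those 3 libraries left out, the BCV of Tlr9 was 12.3%, that of Tlr7 8.64% and that of Tlr2 8.74%, against a median of 11.9% over all genes. Tlr8 kept 29.9% and Tlr5 47.6%.

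The spread of Tlr5 was of another kind. It had 4 counts in old replicate 6, or 0.207 CPM, and 1.40 to 2.26 CPM in the other 5 old libraries, against 0.952 to 2.39 CPM in young libraries. Its count was an even number in 12 of 12 libraries. The count command set no pair option, and the sources used here do not say whether each mate of a read pair was counted.

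The receptors fell together as the cell cycle level of a library rose. Over the 12 libraries, with the group in the model, 8 of 10 receptors had a negative slope past the threshold (edgeR quasi-likelihood test, Benjamini-Hochberg adjusted p below 0.05), as did 14.3% of all tested genes. No receptor rose, where 16.8% of genes rose and 31.1% passed in either direction. Tlr9 fell by 0.71 log2 CPM for each log2 unit of the cell cycle level (SE 0.07, edgeR adjusted p = 5.1e-06), and Tlr8 by 0.61 (SE 0.15, edgeR adjusted p = 0.0094). Tlr1 fell by 0.43, Tlr2 by 0.32, Tlr7 by 0.29, Tlr3 by 0.27, Tlr6 by 0.23 and Tlr4 by 0.15, with standard errors of 0.04 to 0.06. The slope of Tlr13 was -0.12 (SE 0.05, edgeR adjusted p = 0.090), and that of Tlr5 was -0.03 (SE 0.22, edgeR adjusted p = 0.94). The median slope was -0.23 for surface and -0.29 for endosomal receptors, against 0.0039 over all genes. In bulk RNA, fewer cells that express a receptor and less of its RNA per cell cannot be told apart.

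**Figure D3:**
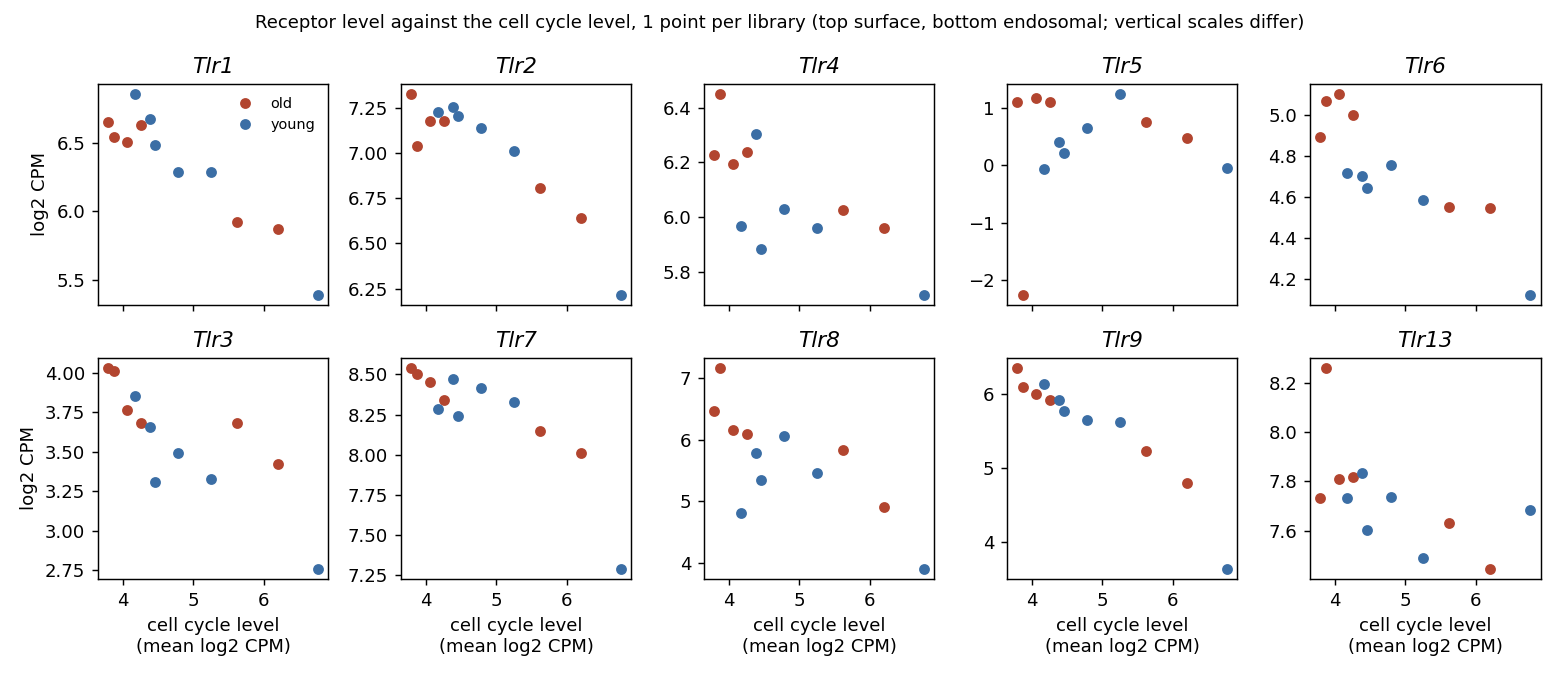
log2 CPM of each receptor against the cell cycle level (mean log2 CPM of 30 genes), 1 point per library, old and young in different colours and vertical scales that differ between panels. The points of Tlr9, Tlr1, Tlr2 and Tlr7 descend to young replicate 6 at the far right, while those of Tlr5 do not.

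These calls rested on the 3 libraries with the highest cell cycle level. With old replicates 2 and 3 and young replicate 6 left out, 0 of 10 receptors passed in edgeR, and 31 genes of the whole table fell. Tlr9, Tlr1 and Tlr3 had the lowest p of the receptors there. Tlr9 then had a slope of -0.48 (SE 0.12, edgeR adjusted p = 0.10), Tlr1 one of -0.44 (SE 0.12, edgeR adjusted p = 0.16) and Tlr3 one of -0.45 (SE 0.17, edgeR adjusted p = 0.36). The slopes of the others that had fallen were nearer to 0 there, at -0.20 for Tlr2, -0.097 for Tlr4, -0.041 for Tlr6 and -0.034 for Tlr7, and that of Tlr8 was 0.12. Without young replicate 6 alone 7 receptors passed, since Tlr4 and Tlr8 were lost and Tlr13 was gained, and without old replicate 2 alone 6 passed, since Tlr4 and Tlr8 were lost. Scaled by library size only, 7 receptors fell, and the whole table held 3224 rising and 1141 falling genes, against 2120 and 1805 with TMM scaling.

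Most receptors rose with the interferon-stimulated level, which ran opposite to the cell cycle level over the libraries. Past the same threshold 6 of 10 had a positive slope, and 9.95% of all tested genes did so. No receptor fell, where 11.8% of genes fell and 21.7% passed in either direction. Tlr9 rose by 0.93 log2 CPM per log2 unit (SE 0.14, edgeR adjusted p = 3.5e-04) and Tlr1 by 0.57 (SE 0.07, edgeR adjusted p = 6.2e-05). Tlr2 rose by 0.41, Tlr3 by 0.38, Tlr7 by 0.36 and Tlr6 by 0.27, with standard errors of 0.07 to 0.09. Of the members that did not pass, Tlr8 had a slope of 0.56 (SE 0.31, edgeR adjusted p = 0.22), Tlr4 one of 0.15, Tlr13 one of 0.10 and Tlr5 one of 0.07.

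**Figure D4:**
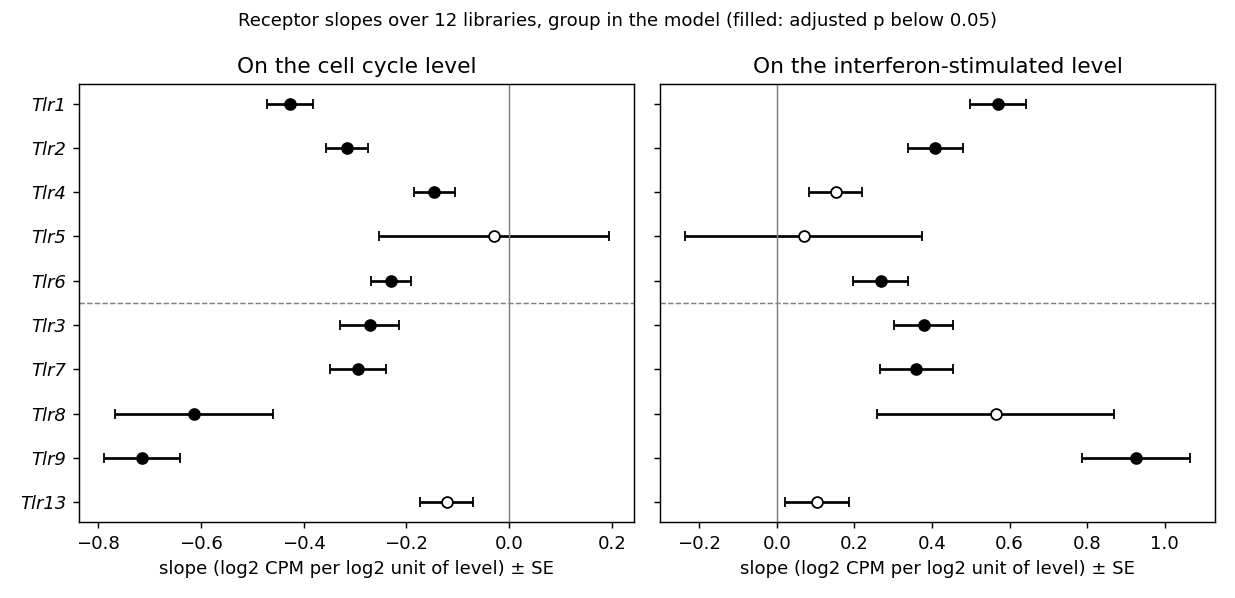
Slope of each receptor on the cell cycle level (left) and on the interferon-stimulated level (right) with its standard error, from edgeR fits over 12 libraries with the group in the model. Filled points passed an adjusted p of 0.05, namely 8 on the left and 6 on the right.

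The pair of levels could be told apart only in part. With both in one model 4 receptors fell with the cell cycle level (Tlr4, Tlr6, Tlr8 and Tlr9), where 1194 of 12620 genes fell, and 0 rose with the interferon-stimulated level in edgeR. Of the receptors no longer past the threshold, Tlr7 had a cell cycle slope of -0.35 (SE 0.13), Tlr1 one of -0.28 (SE 0.10), Tlr2 one of -0.27 (SE 0.10) and Tlr3 one of -0.10 (SE 0.13), and standard errors were wider than with the cell cycle level alone. Tlr13, which passed in neither model, had a slope of -0.33 (SE 0.12). The receptor with the lowest p on the interferon-stimulated level was Tlr8, whose slope was then -1.30 (edgeR adjusted p = 0.075). With old replicates 2 and 3 and young replicate 6 left out, Tlr9 alone rose with the interferon-stimulated level, with a slope of 0.38 (SE 0.08, edgeR adjusted p = 0.010). The slopes of the others that had risen were 0.32 for Tlr1, 0.31 for Tlr3, 0.15 for Tlr2, 0.0037 for Tlr7 and -0.0073 for Tlr6. Without young replicate 6 alone 4 receptors rose (Tlr6 and Tlr7 were lost), and without old replicate 2 alone 5 rose (Tlr6 was lost). Without young replicate 5, 8 rose (Tlr4 and Tlr8 were gained). With 1 library left out in turn, 675 to 1636 genes of the whole table rose. Scaled by library size only, 5 receptors rose, and the whole table held 832 rising and 2801 falling genes, against 1256 and 1488 with TMM scaling.

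Between old and young macrophages no receptor passed the threshold. Of the 10 receptors, 0 had an adjusted p below 0.05 in edgeR, where 0.0158% of tested genes (2 of 12620) passed, and 0 of 10 passed in DESeq2 or limma voom. At an unadjusted p below 0.05 there were 2 receptors, Tlr6 and Tlr8, and 5.47% of all genes. The old and young ranges overlapped for 10 of 10 receptors, where 0.206% of tested genes showed groups that do not overlap. Surface receptors had a median log2 fold change of 0.20, with 3 of 5 positive, and endosomal receptors one of 0.20, with 5 of 5 positive, while the median of all genes was -0.01 with 47.5% positive. Receptors moved together over the libraries, so these signs are not separate observations. The 30 cell cycle genes had a median log2 fold change of -0.30, with 0 positive. With the cell cycle level as covariate Tlr3 had 0.27, Tlr7 0.050, Tlr8 0.63, Tlr9 0.014 and Tlr13 0.069, each smaller than without it. Of the surface receptors, Tlr4 (0.15), Tlr5 (0.23) and Tlr6 (0.20) were also smaller, while Tlr1 (-0.12) and Tlr2 (-0.087) were more negative. With the interferon-stimulated level as covariate the endosomal values were 0.39, 0.16, 0.87, 0.29 and 0.12 in the same order. The reasons were not tested.

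Tlr8 had the largest difference of the 10. It had 30.1, 69.95 and 144 CPM (lowest, median, highest) in old libraries, against 14.96, 42.4 and 66.4 CPM in young libraries. Old values lay above the highest young value in 4 of 6 libraries, with old replicate 6 farthest up and old replicate 2 below the young median. Its log2 fold change was 0.88 (SE 0.39, edgeR adjusted p = 0.77). Without old replicate 6 it was 0.60 with an edgeR adjusted p of 1.00, and with old replicates 2 and 3 and young replicate 6 left out it was 0.99 with an edgeR adjusted p of 0.18.

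Among the surface receptors, Tlr6 had the lowest p. It had 23.4, 30.8 and 34.3 CPM in old libraries, against 17.4, 25.5 and 27.0 CPM in young libraries (lowest, median, highest). As for Tlr8, 4 of 6 old libraries lay above every young library, and the other two, old replicates 2 and 3, lay among the young. Its log2 fold change was 0.27 (SE 0.13, edgeR adjusted p = 0.77), and 0.33 (SE 0.07, edgeR adjusted p = 0.12) with old replicates 2 and 3 and young replicate 6 left out. Tlr4 had 62.2, 74.0 and 87.5 CPM in old libraries, against 52.5, 62.4 and 78.9 CPM in young libraries, and its log2 fold change was 0.20 (SE 0.10, edgeR adjusted p = 0.77). Only old replicate 6 lay above all young libraries for Tlr4. Tlr1 and Tlr2 had log2 fold changes of -0.01 (SE 0.22) and -0.0014 (SE 0.17), whose sign turned in several alternatives, and Tlr5 had one of 0.24 (SE 0.40).

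Of the endosomal receptors, Tlr3 had 10.7, 13.2 and 16.4 CPM in old libraries, against 6.75, 10.6 and 14.4 CPM in young libraries. All 6 old values lay above the young median, and 2 of them above every young value. The log2 fold change of Tlr3 was 0.34 (SE 0.16, edgeR adjusted p = 0.77). Tlr7 averaged 325 ± 46.2 CPM in old and 298 ± 71.9 CPM in young libraries, and Tlr13 averaged 224 ± 45.1 CPM in old and 206 ± 16.9 CPM in young libraries (SD, n = 6 each). Tlr9 averaged 56.9 ± 20.3 CPM in old and 49.6 ± 19.8 CPM in young libraries. These differences lay within the spread of the groups, with log2 fold changes of 0.13 (SE 0.17) for Tlr7, 0.12 (SE 0.11) for Tlr13 and 0.20 (SE 0.36) for Tlr9. Those of Tlr7 and Tlr9 were -0.0037 and -0.0019 without young replicate 6. With old replicates 2 and 3 left out as well, Tlr7 had 0.11 (SE 0.07), Tlr13 0.24 (SE 0.11) and Tlr9 0.28 (SE 0.11). Their edgeR adjusted p was then 0.37, 0.26 and 0.23.

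**Figure D5:**
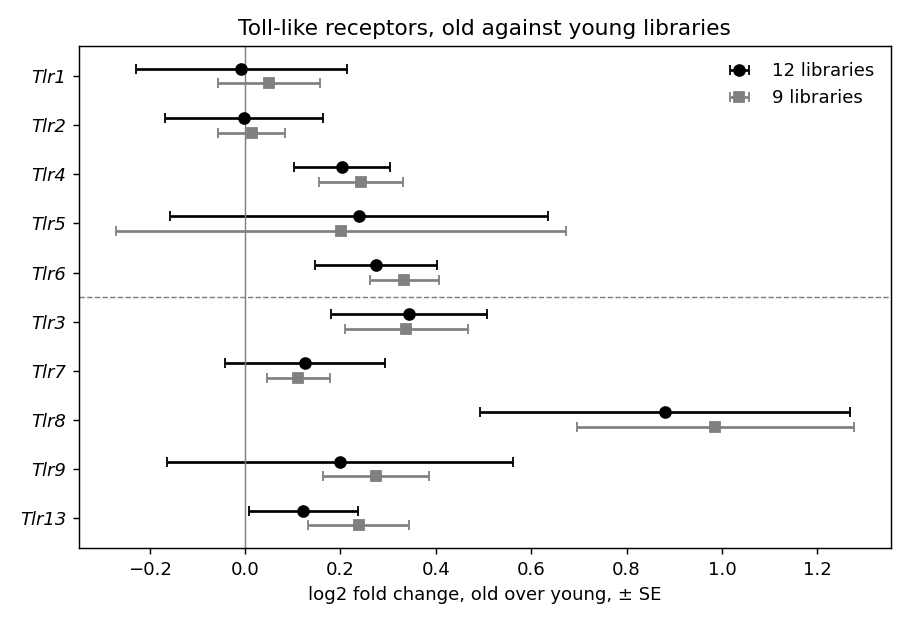
log2 fold change of each receptor, old over young, with its standard error, over 12 libraries (circles) and over 9 libraries, with old replicates 2 and 3 and young replicate 6 left out (squares). Tlr8 lay farthest to the right at 0.88 and 0.99, and no receptor passed the threshold in either fit.

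The receptors also resembled each other over the 12 libraries. By Pearson's r on log2 CPM, given as a description, 32 of the 45 receptor pairs had r above 0.5 and 6 had r below 0. Tlr9 was most alike Tlr2 (r = 0.97), and it was also the receptor most alike Tlr1 (0.95), Tlr7 (0.96) and Tlr3 (0.86). Tlr4 and Tlr8 were most alike each other (0.88), Tlr6 was most alike Tlr8 (0.85), and Tlr13 was most alike Tlr4 (0.75). Tlr5 was the least alike member for the other 9. These values share the library young replicate 6, the lowest young library for 8 of the 10 receptors.

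Among 9424 genes of at least 5 CPM, the genes most alike each receptor were these. Tlr1 was nearest to Pltp, a phospholipid transfer protein (r = 0.99), Spcs2 and the cathepsin gene Ctsh. Tlr2 was nearest to the C-type lectin genes Clec4n (0.98) and Clec4a3 and to Glul, glutamine synthetase. Tlr9 was nearest to Il6st, the shared receptor chain gp130 (0.99), Tent5a and Ms4a6c, and Tlr7 to Cept1 (0.99), Atp8a1 and the cholesterol exporter gene Abca1. Pltp fell with the cell cycle level by 0.82, and Clec4n by 0.57, and in young replicate 6 Pltp had 219 CPM against a mean of 1109 CPM.

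Tlr8 was nearest to Tet3, a DNA demethylation enzyme, at r = 0.996, to the kinase gene Jak1 and to the acetyltransferase gene Ep300. Like Tlr8 they were high in old replicate 6, where Tet3 had 129 CPM against a mean of 80.6 CPM. The exonic lengths of Tet3, Jak1 and Ep300 exceed those of 98.4, 79.5 and 97.2% of tested genes. Tlr8 itself has 3586 exonic bases, against a median of 4210. Tlr4 was nearest to Mdfic (0.96), Kat6a and Celf2, and Tlr6 to Sestd1 (0.94), Ncoa1 and Reep3. In that order these are longer than 80.7, 89.1, 99.8, 90.7, 86.4 and 84.9% of tested genes. Long genes were also among the neighbours of Tlr7 (Atp8a1 97.2%, Abca1 91.9%), Tlr9 (Il6st 93.4%) and Tlr3 (Hmbox1 90.1%). Others were short, such as Clec4a3 of Tlr2 (9.01%) and Ms4a6c of Tlr9 (18.3%). The part of gene length in the likeness was not tested. Tlr3 was nearest to Trim14 (0.93), Hmbox1 and Zc3h12d. Tlr13 was nearest to Dio2 (0.98), the interleukin 7 receptor gene Il7r and Knop1, and old replicate 6 held 127 CPM of Dio2 and 304 CPM of Il7r, against means of 33.2 and 138 CPM. Tlr5 had no close neighbour, with Sh3gl1 nearest at 0.86, then Dcaf12 and Mplkip.

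The partners of the receptors were followed in 7 lists of 94 tested genes. None of the 94 passed between old and young, and 48 had a positive log2 fold change, with a median of 0.0072. With the interferon-stimulated level 33 of the 94 rose and 2 fell, where 9.95% of all tested genes rose and 11.8% fell. With the cell cycle level 3 of the 94 rose and 39 fell, where 16.8% of all tested genes rose and 14.3% fell. Genes for trafficking and processing of endosomal receptors had 7 of 15 rising with the interferon-stimulated level and 6 of 15 falling with the cell cycle level. Unc93b1, the chaperone that carries nucleic acid receptors to endosomes and was named after its values were seen, rose by 0.57 with the first level (SE 0.07, edgeR adjusted p = 2.7e-05) and fell by 0.43 with the second (SE 0.04, edgeR adjusted p = 2.5e-06). Its level was 1117 ± 252 CPM in old and 1038 ± 301 CPM in young libraries (SD, n = 6 each). Ctsb, a cathepsin and the most abundant gene of that list, fell by 0.14 with the cell cycle level, while Ap3b1 and Rnaset2b, those of lowest p between the ages, did not pass with either level.

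Of 7 surface co-receptors tested, 3 rose and 1 fell with the interferon-stimulated level, where 9.95% of all genes rose and 11.8% fell. With the cell cycle level 1 of 7 rose and 2 of 7 fell, counts near the shares of all genes (16.8% and 14.3%). Cd180, a relative of the receptors that dampens TLR4 in some cells, had 343 ± 35.8 CPM in old and 367 ± 54.7 CPM in young libraries and did not pass with either level, nor did the scavenger receptor gene Cd36. Ly96, which encodes the TLR4 partner MD-2 and was named after its values were seen, fell by 0.20 with the cell cycle level.

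Of 6 adaptors, 3 rose with the interferon-stimulated level (9.95% of all genes) and 3 fell with the cell cycle level (14.3% of all genes). Pik3ap1, the most abundant, fell by 0.27 with the cell cycle level, and Ticam2, which bridges TLR4 to TRIF, by 0.24. Myd88, named after its values were seen, had 92.7 ± 9.61 CPM in old and 99.8 ± 19.8 CPM in young libraries and fell by 0.17. Tirap, which bridges TLR2 and TLR4 to MyD88, had 8.04 ± 1.46 CPM in old and 6.52 ± 1.40 CPM in young libraries, with a log2 fold change of 0.30 (SE 0.17, edgeR adjusted p = 0.77), and Ticam1, which encodes TRIF and was also named after its values were seen, had 41.1 ± 4.12 CPM in old and 41.8 ± 4.99 CPM in young libraries. Neither Tirap nor Ticam1 passed with either level.

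Downstream, 8 of 21 kinases and ligases fell with the cell cycle level (14.3% of all genes), and 3 of 21 rose with the interferon-stimulated level, a count near the share of all genes (9.95%). Ikbke, the most abundant, fell by 0.38 with the cell cycle level and rose by 0.53 with the interferon-stimulated level, and Tank, a scaffold of the same kinase, fell by 0.27 with the cell cycle level. Ikbkg, the NEMO subunit, did not pass with either. Of 10 transcription factors 8 fell with the cell cycle level and 6 rose with the interferon-stimulated level, with Irf8 falling by 0.29, Rel by 0.21 and Nfkb1 by 0.20. Of 20 negative regulators 6 fell and 1 rose with the cell cycle level, and Tnip1, Cyld and Otulin, which restrain NF-kB signalling, did not pass. Of 15 tested inflammatory target genes 6 fell and 1 rose with the cell cycle level. The 1 that rose was Ccl2, a monocyte chemokine, by 0.53 (SE 0.19, edgeR adjusted p = 0.0496), while Icam1 and Ccl4 did not pass. Ccl2 had 11.5 to 18.5 CPM in old and 11.8 to 96.6 CPM in young libraries.

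Macrophage genes and markers of other cells moved with these libraries too. Of 10 macrophage genes 8 fell with the cell cycle level, where 14.3% of all genes fell, among them Adgre1 by 0.29, Csf1r by 0.26 and Lyz2 by 0.19, while Cd68 did not pass. The summed level of 14 neutrophil markers was 127 to 240 CPM in old and 73.9 to 224 CPM in young libraries, with its lowest values in old replicate 2 and young replicate 6, and 7 of the 14, Ly6g, Mpo and Elane among them, were below 1 CPM in all libraries. The 9 osteoclast markers summed to 193 to 483 CPM in old and 206 to 247 CPM in young libraries, with the highest value in old replicate 6, which also had the highest Tlr8, Tlr4 and Tlr13, and with Calcr at 0. The 8 monocyte and progenitor markers summed to 47.6 to 101 CPM in old and 49.2 to 82.3 CPM in young libraries, with old replicate 6 the highest old and young replicate 6 the highest young library. The 11 dendritic cell markers summed to 248 to 445 CPM in old and 313 to 767 CPM in young libraries, led by the interferon-stimulated Bst2. The 8 B cell markers summed to 1.17 to 3.02 CPM in old and 2.34 to 3.80 CPM in young libraries, with Pax5, Ebf1 and Iglc2 at 0. The 8 T and NK cell markers summed to 85.5 to 328 CPM in old and 100 to 144 CPM in young libraries, most of it Il7r, with Gzma at 0. Mast cell and basophil markers summed to at most 3.98 CPM, and stromal markers to at most 52.3 CPM, with Col3a1 at 0. The part of other cells in the receptor values was not tested.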

How the data were processed

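RNA was made into libraries with a TruSeq v2 kit, which does not keep strand, per the labels' protocols. The authors deposited whole-number counts per gene made by featureCounts 1.6.0 on GRCm38 with Ensembl release 100, per the file headers, whose command sets no strand, pair or multiple-alignment option. The aligner STAR is named in the submitters' processing notes. Columns were matched to samples by group letter and replicate number, and 0 sample columns were unused. Chi-square per gene between 2 libraries was 4.82 to 163 over 66 pairs, highest between old replicate 4 and young replicate 6. All 12 libraries were kept. Library totals were 19.3 to 25.2 M assigned counts.

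Tests on counts used edgeR 4.0.16 with R 4.3.3 (quasi-likelihood test, robust, TMM factors, edgeR's low-count filter, 12620 genes, Benjamini-Hochberg adjustment, two-sided, threshold 0.05). Models held the group, or the group and 1 level, over all 12 libraries. The tests were also run on simulated counts, with the scatter of each gene drawn on its own. Scatter shared by many genes of a library was not simulated, so that run does not check the tests in these libraries. CPM used TMM factors, TPM used exonic lengths of the annotation, and log2 CPM used a prior count of 2. Python 3.11.15 drew motifs, likeness and figures. The receptors, lists and levels were chosen with earlier results of these data known. The genes named were the 10 receptors, Tlr11, Tlr12, from each pathway list the most abundant gene and the 2 of lowest p, the 3 genes most alike each receptor, 4 macrophage genes, and others said to be named after their values were seen. The list gene Tasl was not matched. Alternatives were other scalings, filters, DESeq2 1.42.0, limma 3.58.1 voom, no robust fit, a replicate block, both levels together, and omission of each library in turn. Omitting 3 libraries together, and the levels as covariates of age, were chosen after seeing the data.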

Additional observations from a re-analysis of the deposited data

Results flagged for a closer look

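Young replicate 6 was set far below the other 5 young libraries for Tlr2 (74.2 CPM), Tlr6 (17.4 CPM), Tlr7 (156 CPM) and Tlr9 (12.4 CPM), by Dixon's test of the gap to the nearest library against the range of the group. It was also far below them in the summed level of surface receptors (157 TPM). Of the 26 groups of values tested, 20 of them of single receptors, these 5 were the ones set apart. Chance sets apart about 1 in 20 groups, but that rate cannot be set against these 5. All 5 come from young replicate 6, these receptors moved together, and the surface sum contains Tlr2 and Tlr6. The same library had the highest cell cycle level (6.77) and the lowest interferon-stimulated level (4.79) of the 12.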

How the results depend on the processing

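No receptor passed between old and young in any of 24 alternatives. Over all genes, the counts higher and lower in old were 6 and 5 with DESeq2, 4 and 1 with the cell cycle level as covariate, and 1 and 2 with old replicates 2 and 3 and young replicate 6 left out, 1 gene was lower without a filter, and leave-one-out gave 1 to 5 higher and 0 to 1 lower. Log2 fold changes turned sign for Tlr1 and Tlr2 with library size (0.017 and 0.019), limma voom (0.025 and 0.020), the interferon-stimulated level as covariate (0.059 and 0.033) and the 3 libraries left out (0.050 and 0.014). Leave-one-out ranges were -0.14 to 0.11 for Tlr1, -0.12 to 0.069 for Tlr2, -0.0037 to 0.19 for Tlr7 and -0.0019 to 0.34 for Tlr9.

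With both levels in one model, 326 genes rose and 267 fell with the interferon-stimulated level (0 receptors rising), and 1230 rose and 1194 fell with the cell cycle level (4 receptors falling). Interferon-stimulated slopes were then -0.21 for Tlr4, -0.13 for Tlr6, -0.086 for Tlr7, -1.30 for Tlr8 and -0.31 for Tlr13, and the cell cycle slope of Tlr5 was 0.13. With the 3 libraries left out, 306 genes rose and 70 fell with the interferon-stimulated level (1 receptor rising), and 86 rose and 31 fell with the cell cycle level (0 receptors falling). Interferon-stimulated slopes were then -0.042 for Tlr4, -0.34 for Tlr5, -0.0073 for Tlr6, -0.55 for Tlr8 and -0.021 for Tlr13, and cell cycle slopes 1.20 for Tlr5 and 0.12 for Tlr8. With library size only, 832 genes rose and 2801 fell with the interferon-stimulated level, and 3224 rose and 1141 fell with the cell cycle level, where Tlr5 had a slope of 0.020 (0.062 with limma voom). Leave-one-out counts were 675 to 1636 rising and 658 to 1930 falling with the interferon-stimulated level (4 to 8 receptors rising), and 1221 to 2274 rising and 1050 to 2123 falling with the cell cycle level (6 to 8 receptors falling). The slope of Tlr5 ranged there from -0.086 to 0.26 and from -0.15 to 0.12. The cause of these shifts was not tested.

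Whether replicate numbers pair old and young libraries is not known. Correlations of same-numbered deviations were 0.55, 0.19, -0.02, 0.65, 0.62 and -0.26 for numbers 1 to 6. Numbers 2, 3 and 6 hold the 3 libraries with the highest cell cycle level, so the lower values cannot exclude pairing. Of the 12 libraries 4 were best correlated with their own number. With the replicate block, 4 genes were higher in old, and Tlr1 and Tlr2 had log2 fold changes of 0.016 and 0.017. With the interferon-stimulated level 8 receptors rose, where 1057 of all tested genes rose and 1023 fell. With the cell cycle level 9 receptors fell. Of all tested genes at most 2580 fell there, which is the highest count over the alternatives, the block included. On the interferon-stimulated level Tlr8 (slope 1.38, edgeR adjusted p = 0.029), Tlr4 (0.33, 0.028) and Tlr13 (0.27, 0.033) were gained, Tlr6 (0.37, 0.074) was lost, and Tlr5 had a slope of -0.56. On the cell cycle level Tlr13 (-0.17, 3.1e-04) was gained, and Tlr5 had a slope of 0.26.

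As a share of summed CPM, the surface part was 31.7% in old and 33.5% in young libraries, without Tlr2 it was 21.4% and 22.5% of TPM, and leave-one-out gave 34.1 to 35.5% in old and 36.3 to 37.3% in young libraries. Depth limits Tlr5, whose counts were 4 to 54.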
